A study of Mus musculus with 36 samples.

Results

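The proteasome genes described here are the genes whose mouse symbol is Psma, Psmb, Psmc or Psmd followed by a number alone: 39 of the 21889 gene symbols with a value, each found once. They were picked by symbol and not by any measured value. By role they are 7 alpha subunits of the 20S core (Psma1 to Psma7), 4 non-catalytic beta subunits (Psmb1 to Psmb4), 3 constitutive catalytic subunits (Psmb5, Psmb6 and Psmb7), 3 immunoproteasome catalytic subunits (Psmb8, Psmb9 and Psmb10), 2 subunits known from testis and thymus (Psma8 and Psmb11), 6 ATPases of the 19S cap (Psmc1 to Psmc6), 11 non-ATPase subunits of the cap and 3 chaperones that help assemble it (Psmd5, Psmd9 and Psmd10). Messenger RNA was sequenced from whole livers of male C57BL/6J mice from multiple litters, with 3 mice at each of 12 ages, 36 libraries in all. The ages were Day -2 (late gestation, 2 days before birth), Day 0 (after birth and before the first suckling), Day 1, Day 3, Day 5, Day 10, Day 15, Day 20, Day 25, Day 30, Day 45 and Day 60, and the pups were weaned between Day 20 and Day 25. Strain, sex and tissue were the same in all groups, so age is the only labelled difference; a mouse was sampled at 1 age only. Levels are FPKM, fragments per kilobase of transcript relative to all mapped fragments, which correct for transcript length, and a mean is given with the SD over 3 mice.

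The proteasome is the large protease that degrades proteins tagged with ubiquitin. The 20S core is a barrel of alpha and beta rings with the cutting sites inside, and the 19S cap recognises tagged proteins, removes the ubiquitin and threads the chain into the core. After exposure to interferon gamma, and in many immune cells, newly made cores carry Psmb8 in place of Psmb5, Psmb9 in place of Psmb6 and Psmb10 in place of Psmb7, which favours peptides that fit MHC class I molecules.

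The label liver was checked with 9 hepatocyte markers, all found and above 0. Albumin (Alb), the most abundant of them, was at 3272 FPKM on Day -2, 25672 on Day 0, 47051 on Day 15 and 29902 on Day 60, and the 9 together went from 8401 on Day -2 to 47007 on Day 60. Every library therefore held hepatocyte RNA, but the marker sums moved strongly with age, and a sum of marker RNA does not give a share of cells. The 9 erythroid markers found of 10 summed to 3521 FPKM on Day -2, 718 on Day 5 and 69.8 on Day 60 (most abundant Slc4a1). The 8 neutrophil markers summed to 2809.9, 4093 and 2.26 on Days -2, 0 and 60 (most abundant S100a8), and 10 pan-leukocyte markers to 245, 327 and 50.2 (most abundant Laptm5). Markers of blood-forming and white cells were thus far higher around birth than in the adult. Day 0 replicate 1 also held skeletal muscle RNA, with a sum of 1181 FPKM over 7 markers (most abundant Acta1) against 4.50 and 4.30 in the other mice of that age. The 8 exocrine pancreas markers (most abundant Ctrb1) varied by library and reached 23926 FPKM in Day 60 replicate 1. No marker of these lists was at 0 in every mouse. The table gives no read totals, so the depth of each library cannot be read from it; estimated from the lowest values of 1443 genes, it lay between 0.897 and 1.33 times that of the median library, and the FPKM of a library summed to between 353712 and 450597.

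At each age the members spanned a wide range. Leaving out the 3 immunoproteasome subunits and the 2 testis and thymus subunits, the 34 others had a median of 54.3 FPKM on Day -2, from 3.47 (Psma3) to 185 (Psmb4). That median was 31.5 on Day 0, 42.5 on Day 5, 24.7 on Day 10, 23.6 on Day 20, 30.0 on Day 25 and 28.9 on Day 60. On the FPKM scale the profile is a peak before birth, a trough before weaning and a middle level in the adult; by median ratio the members had a median log2 fold change of -0.14 on Day -2 and 0.27 on Day 30 against Day 60, so the peak before birth was gone. Because the liver is a mixture, fewer cells of a type and less RNA per cell cannot be told apart here. Psmb4, which closes the beta ring, was the most abundant member tested, with 185 ± 39.0 FPKM on Day -2, 121 ± 12.5 on Day 20 and 131 ± 22.2 on Day 60. Psma3 was the least abundant of those tested by its mean over the ages, although Psma5 was lower on Days 45 and 60, and was at 3.47 ± 0.421 on Day -2 and 2.79 ± 0.534 on Day 60. Psma8, the alpha subunit of the testis proteasome, never passed 0.425 FPKM as an age mean, and Psmb11, the thymus catalytic subunit, was listed at 0 in all mice but 2. Both lay under the filter of a mean of 1 FPKM in at least 1 age, so 37 of 39 members were tested. Summed over all 39, the members gave 2078 FPKM on Day -2, 1923 on Day 5, 1144 on Day 20 and 1288 on Day 60.

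**Figure D1:**
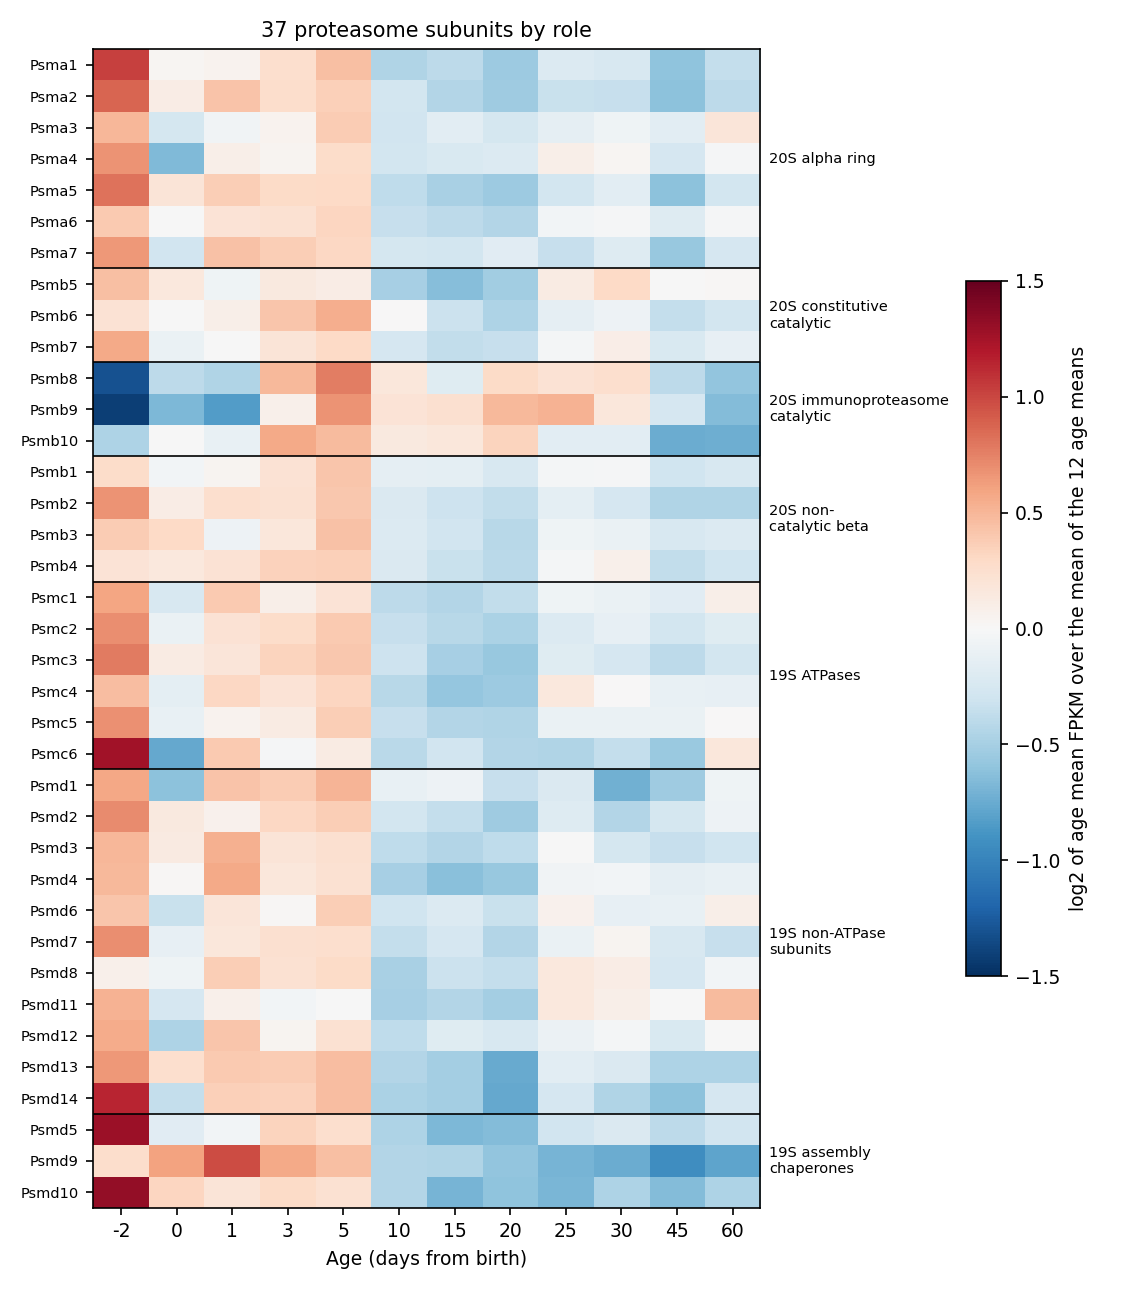
Mean level of each tested member at each age, as log2 of FPKM relative to that member's mean over the ages, with members in rows grouped by role and the 12 ages in columns. Most of the 34 members other than Psmb8, Psmb9 and Psmb10 are highest on Day -2 (26 members, a count not made over all genes) and low on Days 10 to 20. The 3 immunoproteasome subunits are low on Day -2 and high on Days 3 and 5. Scaled by upper quartile or median ratio, 18 or 24 of 37 members were lower, not higher, on Days -2 to 5 than on Days 25 to 60.

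Several members have near-identical copies elsewhere in the genome, which makes the assignment of their reads uncertain. Stretches of at least 95% identity outside the gene covered 99.9% of the Psmb5 transcript, 99.7% of Psma4, 97.4% of Psmb3, 91.9% of Psmd2, 79.6% of Psma5, 54.6% of Psmd11, 47.8% of Psmc1, 40.1% of Psma3 and 9.95% of Psmc6. No such stretch was found for Psmb6, Psmb7, Psmb8, Psmb9 or Psmb10. That search leaves out matches at the place of the gene itself. In the annotation GENCODE M1, 2 overlapping genes bear the name Psmb9 and share 3647 of 3659 exon bases. Psmd14 also names 2 genes, which share 338 of 2826 exon bases. How the deposited values of Psmb9 and Psmd14 treat these entries was not tested, so their levels carry a doubt of their own. The levels of Psmb5 and the other members with copies carry this doubt at every age.

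Every age was compared with Day 60, the oldest. By limma, with Benjamini-Hochberg adjustment made jointly for every gene and all 11 ages, 35 of 37 members differed from Day 60 in at least 1 age, against 90.7% of the 11149 genes tested, so this count says little about proteasome genes in particular. The exceptions were Psma3 and Psmd8, named after their values were seen. Among the adult ages no member passed: limma called 0 of 37 on Day 25, Day 30 and Day 45 against Day 60, where it called 7.42, 3.56 and 0.233% of all genes. At an unadjusted p under 0.05 the same comparisons gave 5, 5 and 2 members (13.5, 13.5 and 5.41%) against 19.4, 18.3 and 7.22% of all genes. Scaled to TPM, 3 members were higher and 0 lower on Day 25, where 6.85% of all genes were higher and 2.05% lower, and without Day 30 replicate 2, 1 passed on Day 30.

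The perinatal ages, Days -2 to 5, were set against the adult ages, Days 25 to 60, which compares the liver around birth with the grown liver. On the FPKM scale, 30 members were higher and 0 lower of 37 (limma, adjusted p under 0.05), against 70.2% higher and 15.5% lower of all genes tested, and 30 members also passed at an unadjusted p under 0.05. The median log2 fold change was 0.41 over the members and 0.54 over all genes, and 24 of 37 members lay below the median of all genes. The direction rests on the scaling: after upper quartile scaling 3 members were higher and 18 lower, with the median ratio 2 higher and 24 lower, and with TPM 26 higher and 2 lower, where 46.8 and 31.98%, 39.6 and 39.7%, and 65.9 and 17.7% of all genes were higher and lower. The median of all genes in this contrast was 0.54 on the FPKM scale, 0.14 with the upper quartile, 0.0027 with the median ratio and 0.59 with TPM. The median of the members lay below it each time, by -0.14, -0.36, -0.42 and -0.30 on the log2 scale. A scaling multiplies a whole library by a single factor, which moves members and all genes largely alike, so these differences are not independent of each other. Relative to the typical gene, the members as a group were thus lower over the pooled ages around birth, though on the FPKM scale 22 of 37 on Day -2 and 20 of 37 on Day 5 lay above the median of all genes against Day 60. Psmd9 and Psmd10, chaperones of the ATPase ring, were higher around birth under all 3 other scalings as well. Psmd9 was at 16.2 ± 1.05 FPKM on Day -2, 26.7 ± 3.22 on Day 1 and 7.77 ± 0.878 on Day 60, a limma log2 fold change of 1.26 (SE 0.059; adjusted p = 6.54e-18) by Benjamini-Hochberg. Psmd10, known as gankyrin, went from 10.9 ± 0.780 on Day -2 to 3.18 ± 0.514 on Day 60, a limma log2 fold change of 0.84 (SE 0.058; adjusted p = 6.43e-14) by Benjamini-Hochberg.

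Birth was examined as the step from Day -2 to Day 0. Most members fell: limma called 26 of 37 lower and 2 higher by Benjamini-Hochberg adjusted p, against 41.4% lower and 13.1% higher of all genes; the members had a median of -0.59 on the log2 scale and all genes one of -0.29. In mean level on the FPKM scale 33 of the 34 members outside the immunoproteasome were lower on Day 0 than on Day -2. The share of all genes with a lower mean was not counted. The largest falls were in Psmc6, an ATPase (24.9, 14.001 and 15.0 FPKM on Day -2, 6.02, 4.06 and 3.15 on Day 0, log2 fold change -1.80), Psmd14, which strips ubiquitin from the substrate (36.5, 35.9 and 37.6, then 13.4, 16.7 and 8.80, -1.47), and Psmd5, a cap chaperone (23.9, 26.3 and 26.3, then 6.29, 12.0 and 9.87, -1.39). For each of these genes all 3 mice of Day 0 were below all 3 of Day -2, which follows largely from picking the largest falls. All 7 alpha subunits and all 6 ATPases fell, as did 9 of 11 non-ATPase subunits, but only 1 of 4 non-catalytic beta subunits (Psmb2) and 1 of 3 constitutive catalytic subunits (Psmb7). The 2 that rose were Psmb8 (0.85) and Psmd9 (0.30); Psmd5 was named after its values were seen. The count of falls was 19 with the upper quartile, 28 with TPM and 8 with the median ratio, where 26.03, 38.8 and 19.8% of all genes fell; by median ratio 3 members rose against 23.8% of all genes, and the median was -0.22 over the members and 0.027 over all genes. Under that scaling the medians of the constitutive catalytic and of the non-catalytic beta subunits turned to 0.16 and 0.23. Hepatocyte markers rose in the same step (8 of 9) and erythroid markers fell (9 of 9); their part in the falls of proteasome genes was not tested.

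The suckling ages, Days 10 to 20, were set against Days 25 to 60 to compare the liver before and after weaning. Here the members were low: limma called 16 of 37 lower and 2 higher by Benjamini-Hochberg adjusted p, against 12.4% lower and 44.9% higher of all genes. The median log2 fold change was -0.16 over the members and 0.19 over all genes, and 33 of 37 members lay below the median of all genes. The direction held under each scaling. The members lower and higher were 23 and 1 by upper quartile, 29 and 0 by median ratio and 16 and 2 by TPM. Of all genes 18.6, 27.5 and 13.3% were lower and 37.4, 27.5 and 42.9% higher. The members lay -0.35, -0.42, -0.49 and -0.42 from the median of all genes with FPKM, upper quartile, median ratio and TPM, differences that are again not independent of each other. All 34 members outside the immunoproteasome had a lower mean FPKM on Day 10 than on Day 5, and 23 of the 34 had their lowest mean on Day 10, 15 or 20. Neither count was made over all genes. On the FPKM scale the median against Day 60 went from 0.55 on Day 5 to -0.09 on Day 10 over the members. Over all genes it also fell, from 0.53 to 0.22. By median ratio it went from -0.23 to -0.45 over the members and from -0.020 to -0.017 over all genes. By role, 5 of 6 ATPases were lower, 7 of 11 non-ATPase subunits, 2 of 3 constitutive catalytic subunits, 1 of 7 alpha subunits (Psma6), 1 of 3 cap chaperones (Psmd5) and 0 of 4 non-catalytic beta subunits, where limma also gave 0 at an unadjusted p under 0.05; by median ratio all 4 of the last were lower. Among the lower members the largest differences were in Psmb5 (-0.64), Psmd11 (-0.54) and Psmc4 (-0.48), the last of these chosen with Psmd11 after their values were seen. The 2 higher members were Psmb10 (0.63) and Psmd9 (0.27), neither of which passed by median ratio. Leaving out any 1 mouse gave 12 to 17 lower and 2 or 3 higher members.

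The step across weaning, Day 20 to Day 25, went the other way. In mean FPKM 30 of the 34 members outside the immunoproteasome were higher on Day 25, a count not made over all genes. The median log2 fold change was 0.31 over the members and -0.065 over all genes, and 34 of 37 members lay above the median of all genes. By limma with Benjamini-Hochberg adjustment 6 members rose and 0 fell, against 3.94% and 3.26% of all genes, and 16 members (43.2%) had an unadjusted p under 0.05 against 18.98% of all genes. The 6 were Psmc3, Psmc4 and Psmc5 of the ATPase ring, Psmd4, a ubiquitin receptor, Psmd11, a scaffold subunit of the cap, and Psma6, with log2 fold changes from 0.34 (Psmc5) to 0.69 (Psmc4); they were named after their values were seen. Psmc4 was at 32.8, 30.0 and 31.5 FPKM in the mice of Day 20 and 47.5, 56.6 and 50.4 in those of Day 25, and Psmd11 at 3.65, 2.98 and 2.65, then 5.20, 4.23 and 5.36. In both genes all 3 mice of Day 25 were above all 3 of Day 20. With 3 mice per age this count is fragile: it was 1 without Day 20 replicate 2 or Day 20 replicate 3, 2 without Day 25 replicate 2 or Day 25 replicate 3, and 3 without Day -2 replicate 3, Day 1 replicate 1, Day 3 replicate 3, Day 10 replicate 3, Day 15 replicate 2, Day 45 replicate 2, Day 60 replicate 1 or Day 60 replicate 2.

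Among the roles, the members differed in how far their age means ranged. The ratio of the highest to the lowest age mean was smallest for the non-catalytic beta subunits (median 1.76) and the constitutive catalytic subunits (2.00), 2.20 for the non-ATPase subunits, 2.22 for the ATPases and 2.53 for the alpha subunits, and largest for the cap chaperones (3.88) and the immunoproteasome subunits (4.21). In the alpha ring, Psma1 moved most, from 68.0 ± 9.78 FPKM on Day -2 to 22.02 ± 3.10 on Day 45, and Psma3 least. Among the non-catalytic beta subunits Psmb2 moved most, from 96.4 ± 7.15 on Day -2 to 44.0 ± 0.549 on Day 60, and Psmb1 least, from 117 ± 19.3 on Day 5 to 71.2 ± 5.16 on Day 45. Of these 4 beta genes, 3 peaked on Day 5 on the FPKM scale, whereas all 7 alpha genes and all 6 ATPase genes peaked on Day -2. Psmc6 ran from 17.98 ± 6.04 on Day -2 to 4.41 ± 1.46 on Day 0, and Psmc1, also an ATPase, from 31.4 ± 1.60 on Day -2 to 15.3 ± 2.12 on Day 15. Psmd14, the deubiquitinase of the cap, went from 36.7 ± 0.851 on Day -2 to 9.74 ± 1.37 on Day 20, and Psmd6 from 40.9 ± 0.426 to 24.3 ± 2.04 at the same ages. The members thus had ratios of different size on the FPKM scale, but the roles overlapped. The ratio ran from 1.73 to 3.09 for alpha subunits, 1.64 to 2.19 for non-catalytic beta subunits and 2.05 to 4.08 for ATPases. A difference between roles was not tested.

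The constitutive catalytic subunits were the more abundant set at every age. Psmb5, the chymotrypsin-like subunit, was at 57.5, 95.7 and 86.3 FPKM in the mice of Day -2, 50.4, 82.3 and 55.8 on Day 5, 35.3, 38.2 and 48.3 on Day 20, 47.3, 85.6 and 58.5 on Day 25 and 50.4, 56.6 and 69.7 on Day 60. Its Day 20 mice were low, all below every mouse of Day -2, Day 5 and Day 60, and 1 of 3 was above the lowest mouse of Day 25. Psmb6, the caspase-like subunit, was at 85.0, 144 and 138 on Day -2, 122, 201 and 136 on Day 5, 66.9, 75.4 and 86.6 on Day 20 and 69.9, 85.8 and 106 on Day 60. The 3 mice of Day 5 were all above the 3 of Day 60, and the mice of Day -2 and Day 5 overlapped. Psmb7, the trypsin-like subunit, was at 100.4, 112 and 105 on Day -2, 58.7, 69.6 and 71.8 on Day 0, 75.02, 101 and 86.9 on Day 5, 50.5, 61.1 and 56.5 on Day 20 and 57.1, 65.6 and 73.5 on Day 60. Its Day -2 mice were all above those of Day 0, and its Day 5 mice all above those of Day 60. In the limma fit, with Benjamini-Hochberg adjustment, Days 10 to 20 against Days 25 to 60 gave log2 fold changes of -0.64 (SE 0.14; adjusted p = 2.13e-04) for Psmb5, -0.24 (SE 0.086; adjusted p = 0.0170) for Psmb7 and -0.054 (SE 0.13; adjusted p = 0.731) for Psmb6. Without Day 10 replicate 1 the value for Psmb7 was -0.20 and no longer passed (adjusted p = 0.057 by limma with Benjamini-Hochberg, 0.0170 with all mice), and that for Psmb6 was 0.0060. Days -2 to 5 against Days 25 to 60 gave 0.060, 0.26 and 0.45 on the FPKM scale for Psmb5, Psmb7 and Psmb6, of which the last 2 passed, but -0.57, -0.37 and -0.19 by upper quartile and -0.77, -0.57 and -0.39 by median ratio.

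The 3 immunoproteasome subunits differed around birth from most other members. Psmb8 and Psmb9 had their lowest age mean on Day -2, Psmb10 was lower there than at any age from Day 0 to Day 30, and all 3 rose by Day 5. Psmb6 also had its highest age mean on Day 5, at 1.25 times Day -2, but its mice of these ages overlapped. Psmb8 was at 7.78, 11.7 and 8.93 FPKM on Day -2, 17.1, 15.9 and 20.5 on Day 0, 25.2, 32.5 and 41.3 on Day 3, 40.8, 49.0 and 29.9 on Day 5, 46.3, 15.2 and 24.4 on Day 20 and 14.9, 16.5 and 15.4 on Day 60. All mice of Days 0, 3 and 5 were above those of Day -2, and the Day 20 mice were spread over a wide range, with replicate 1 far above the other 2. Psmb9 was at 3.58, 7.52 and 5.82 on Day -2, 7.75, 9.58 and 10.9 on Day 0, 10.6, 17.7 and 19.3 on Day 3, 27.3, 27.5 and 17.3 on Day 5, 40.3, 9.50 and 13.6 on Day 20 and 9.15, 9.24 and 10.3 on Day 60. Psmb10 was at 16.5, 23.96 and 20.6 on Day -2, 28.1, 25.9 and 30.4 on Day 0, 30.3, 43.1 and 51.4 on Day 3, 43.4, 43.8 and 29.9 on Day 5, 49.5, 25.0 and 31.9 on Day 20 and 15.1, 16.4 and 19.3 on Day 60. For both genes the Day 5 mice were all above those of Day -2 and all above those of Day 60, and Day 20 replicate 1 again stood above its age group. In mean level Day 5 was 4.21 times Day -2 for Psmb8, 4.27 times for Psmb9 and 1.92 times for Psmb10, and Day 60 was 0.391, 0.398 and 0.433 times Day 5.

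The contrast of Day 5 with Day -2 was added after the values were seen. By limma with Benjamini-Hochberg adjustment 3 of 37 members rose, all of them immunoproteasome subunits, and 13 fell, against 25.9% higher and 27.9% lower of all genes; the median log2 fold change was -0.28 over the members and -0.030 over all genes. The limma log2 fold change was 1.96 (SE 0.28; adjusted p = 1.28e-06) for Psmb8, 1.93 (SE 0.38; adjusted p = 1.12e-04) for Psmb9 and 0.90 (SE 0.27; adjusted p = 0.00592) for Psmb10 after Benjamini-Hochberg adjustment. Over the alternative settings the adjusted p of limma (Benjamini-Hochberg) ran from 1.96e-07 to 3.34e-05 for Psmb8, 1.54e-05 to 7.10e-04 for Psmb9 and 0.00275 to 0.0304 for Psmb10. The subunits they replace did not pass in this contrast, with -0.34 for Psmb5, 0.33 for Psmb6 and -0.28 for Psmb7. The 13 that fell included 5 of 6 ATPases, led by Psmc6 (-1.08), and the cap chaperones Psmd5 (-0.98) and Psmd10 (-0.96). By upper quartile 12 of 37 fell, where 27.9% of all genes fell. By median ratio 8 fell and by TPM 8, where 26.4 and 22.3% of all genes fell. Under these last 2 scalings the falls were no more common than in other genes. Against the adult ages, Days -2 to 5 gave -0.034 for Psmb8 and -0.33 for Psmb9, neither of which passed on the FPKM scale, though both were called lower by upper quartile (-0.64 and -0.92) and median ratio (-0.84 and -1.11) and Psmb9 by TPM (-0.48), and 0.53 (SE 0.13; adjusted p = 4.16e-04) by limma with Benjamini-Hochberg adjustment for Psmb10, which turned to -0.089 by upper quartile and -0.29 by median ratio. The value for Psmb8 lay between -0.092 and 0.024 when mice were left out singly, and that for Psmb9 passed without Day 20 replicate 1 (-0.33) or Day 25 replicate 1 (-0.41).

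**Figure D2:**
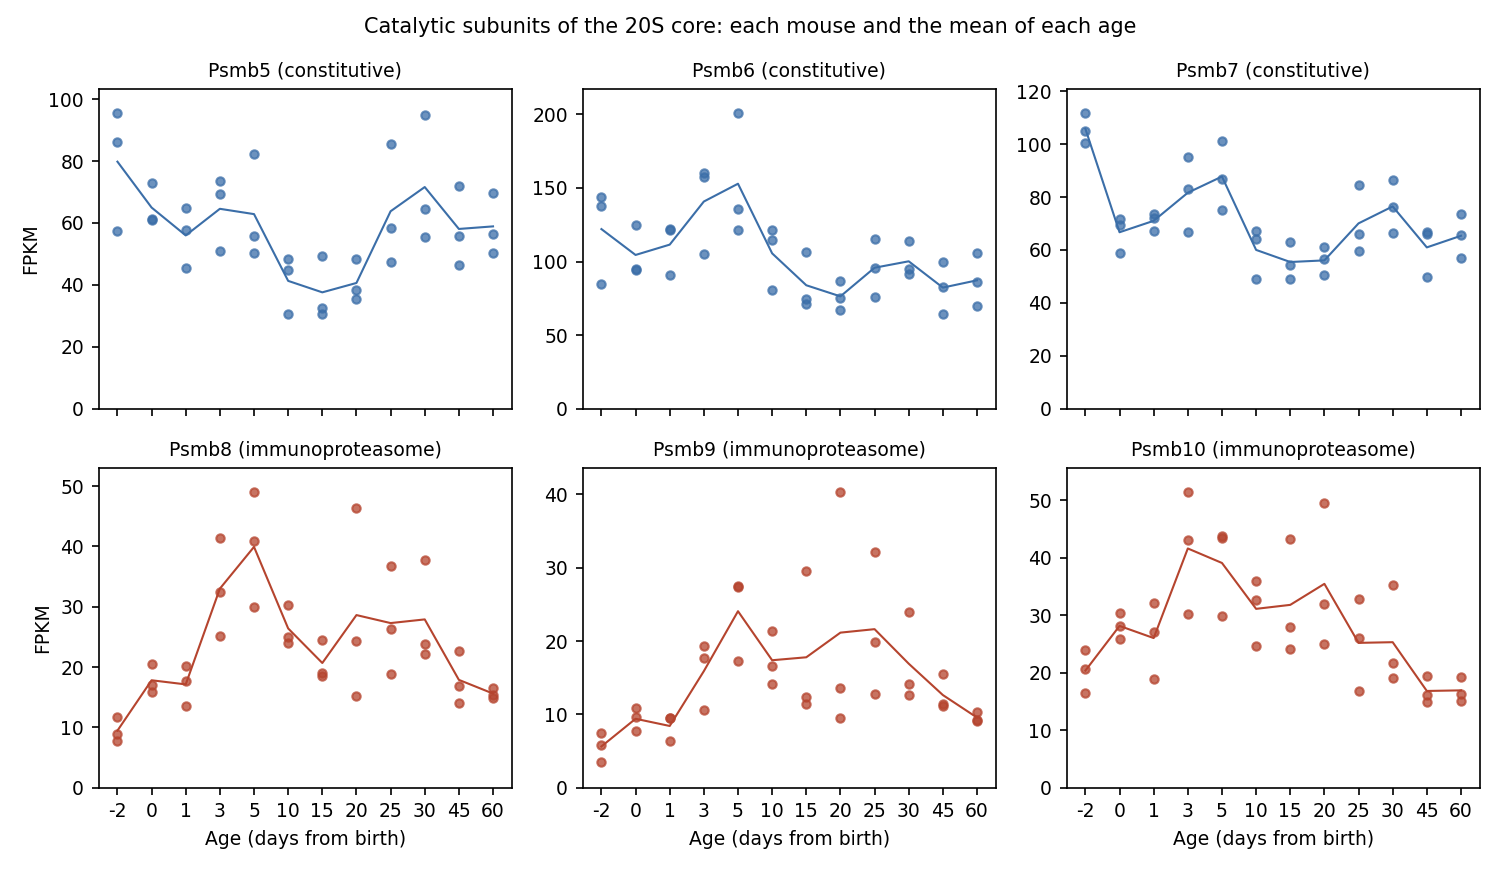
FPKM of the 6 catalytic subunits against age, with each point 1 mouse and the line through the mean of 3 mice. Psmb8, Psmb9 and Psmb10 rise between Day -2 and Day 5 (4.21, 4.27 and 1.92 times in mean level), and Psmb5 and Psmb7 are lower on Days 10 to 20 than in the adult.

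A share within a mouse needs no scaling between libraries, so the immunoproteasome subunits were also expressed as a percentage of the summed FPKM of the 6 catalytic genes. The share was 10.3, 10.95 and 9.70% in the mice of Day -2, 19.8, 18.6 and 18.7% on Day 0, 31.1, 23.8 and 21.7% on Day 5, 47.1, 22.1 and 26.7% on Day 20 and 18.1, 16.8 and 15.3% on Day 60. Every mouse of every later age lay above the 3 mice of Day -2, and Day 20 held both the highest mouse and a wide spread. The age means were 10.3%, 19.02% and 17.6% on Days -2, 0 and 1, 23.8% on Day 3, 25.5% on Day 5, 26.7% on Day 10, 28.5% on Day 15, 32.001% on Day 20, 24.2% on Day 25, 21.7% on Day 30, 19.1% on Day 45 and 16.8% on Day 60. Without Day 20 replicate 1 the mean of Day 20 was 24.4%. The mice of Day 15 were at 26.4, 38.2 and 21.1%, so the higher means of Days 15 and 20 each rested on 1 mouse. The share thus climbed from before birth to Days 3 to 10 and came down in the adult, and a further climb to Day 20 is not shown.

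**Figure D3:**
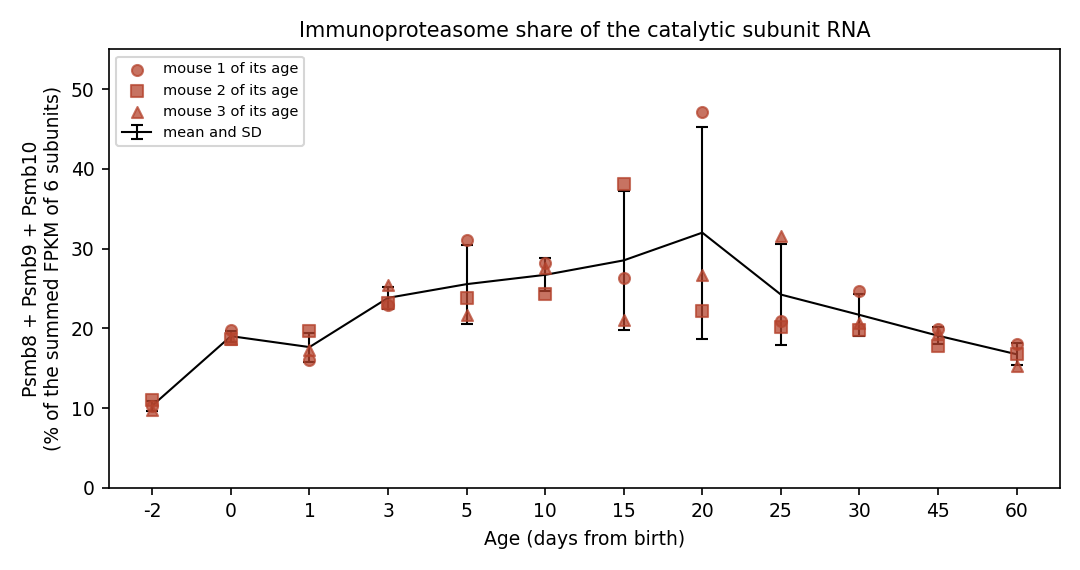
Share of Psmb8, Psmb9 and Psmb10 in the summed FPKM of the 6 catalytic subunits, in percent, against age; each point is 1 mouse and the line joins the means of 3 mice. The share is 10.3% on Day -2, 25.5% on Day 5 and 16.8% on Day 60, and the highest mouse, Day 20 replicate 1, is at 47.1%.

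Each immunoproteasome subunit was then compared with the subunit it replaces, as a log2 ratio within a mouse. Between Days -2 to 5 (5 ages) and Days 25 to 60 (4 ages), the mean log2 ratio differed by -0.10 for Psmb8 to Psmb5, -0.82 for Psmb9 to Psmb6 and 0.28 for Psmb10 to Psmb7, perinatal minus adult. The age means were permuted exactly, two-sided, over 126 splits. The exact permutation p-values were 0.865, 0.0635 and 0.389, or 0.865, 0.190 and 0.583 after Benjamini-Hochberg adjustment over the 3 pairs. None of the 3 passed, and the ages within the perinatal group spread widely, since the log2 ratio of Psmb8 to Psmb5 ran from -3.06 on Day -2 to -0.65 on Day 5. With Days 1 to 20 in place of Days -2 to 5 the difference was 0.64 for Psmb8 to Psmb5, -0.099 for Psmb9 to Psmb6 and 0.71 for Psmb10 to Psmb7, and only the last passed the exact permutation test (adjusted p = 0.0286).

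The mouse with the highest immunoproteasome share was also high in genes that respond to interferon. The 4 highest shares of the 36 mice were 47.1% in Day 20 replicate 1, 38.2% in Day 15 replicate 2, 31.6% in Day 25 replicate 3 and 31.1% in Day 5 replicate 1. In Day 20 replicate 1, Igtp was at 168 FPKM against 8.38 and 11.01 in the other mice of that age, and Tap1 at 37.8 against 4.35 and 8.28. The 19 interferon response genes summed to 466 FPKM in that mouse and to 74.9 and 76.4 in the others (most abundant Igtp). Its pan-leukocyte sum was 86.0 against 50.6 and 57.3, its sum of T and NK markers 14.8 against 6.80 and 9.44 (most abundant Gzma) and its macrophage and Kupffer sum 298 against 206 and 216 (most abundant C1qb). Within an age, the mouse with the highest share also had the highest Irgm1 in 9 of 12 ages, the highest Igtp in 7, the highest Irf1 in 7, the highest Tap1 in 6, the highest interferon response sum in 8, the highest MHC class I sum in 8, the highest pan-leukocyte sum in 6 and the highest hepatocyte sum in 6, where chance gives 4. Psmb8 and Psmb10 ranked the 3 mice alike in 11 of 12 ages, Psmb8 and Psmb9 in 7, Psmb8 and Psmb5 in 6, Psmb8 and Psmb6 in 5, Psmb8 and Psmb7 in 6, Psmb8 and Psme1 in 7 and Psmb8 and Irgm1 in 2, where chance gives 2. That chance value takes the mice of an age as interchangeable. Replicate 1 was the lowest mouse in 8 of 12 ages for Psmb8, Psmb9 and Psmb10, 10 for Psmb5 and 11 for Psmb7. The counts of this paragraph are descriptions chosen after the values were seen, and the part of interferon response or of white cells in the share was not tested.

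From Day -2 to Day 5, when the immunoproteasome genes rose, the lists around them moved as follows by limma with Benjamini-Hochberg adjustment. Of 11 tested genes of MHC class I antigen processing 7 rose and 0 fell (median log2 fold change 1.01), and of 15 tested interferon response genes 10 rose and 0 fell (1.28), against 25.9% higher and 27.9% lower of all genes in this contrast; at an unadjusted p under 0.05 these lists gave 7 and 11 genes. Tap1, a subunit of the peptide transporter of that pathway, was at 2.65, 4.13 and 2.89 FPKM on Day -2 and 15.6, 17.7 and 9.39 on Day 5, with no overlap, a log2 fold change of 1.82. Interferon gamma itself (Ifng) stayed near 0, with a highest age mean of 0.0970 FPKM on Day 3. Of the T and NK markers 4 of 5 tested rose, of the macrophage and Kupffer markers 7 of 10, of the endothelial markers 7 of 8 and of the hepatocyte markers 8 of 9, while 0 of 10 pan-leukocyte markers passed in limma in either direction (1 at an unadjusted p under 0.05), 9 of 9 erythroid markers fell and 8 of 8 cell division genes fell. The T and NK sum was 11.2 FPKM on Day -2, 78.2 on Day 3, 61.9 on Day 5 and 3.96 on Day 60, and the macrophage and Kupffer sum 248, 398, 440.0 and 149.7. The interferon response sum was 60.1, 259.8, 136, 209 and 162 FPKM on Days -2, 0, 1, 3 and 5, so it was highest on Day 0, before the immunoproteasome genes reached their peak. The counts of the MHC class I list were 7 and 0 under each scaling, and those of the interferon list 10 or 11 and 0. Of the MHC class I genes, B2m and H2-K1 were highest on Day 60: B2m, the light chain, went from 139 ± 8.32 FPKM on Day -2 to 288 ± 37.4 on Day 5 and 1844 ± 160.0 on Day 60, and H2-K1, a heavy chain, from 22.3 ± 7.92 to 53.2 ± 8.61 and 455 ± 63.6. Tap1 of the same list was at 5.77 ± 0.0950 on Day 60. The part of the cell mixture in these values was not tested.

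The other genes of the proteasome pathway were taken from fixed lists and compared between Days -2 to 5 and Days 25 to 60 on the FPKM scale. Of the 5 activators and inhibitor of the core, 4 were higher and 0 lower (2 higher and 1 lower by upper quartile and by median ratio), in a contrast where 70.2% of all genes were higher and 15.5% lower (46.8 and 31.98% by upper quartile, 39.6 and 39.7% by median ratio), the shares to set beside each count that follows. Psme3, the nuclear activator of the PA28 family, was at 143 ± 23.1 FPKM on Day -2, 47.3 ± 10.5 on Day 5, 15.4 ± 2.58 on Day 20 and 17.5 ± 0.923 on Day 60, a limma log2 fold change of 2.03 (SE 0.096; adjusted p = 6.83e-18) by Benjamini-Hochberg, and it was higher under every setting. Psme1, an interferon-inducible activator subunit, was at 81.8 ± 15.1 on Day -2, 131 ± 25.6 on Day 3 and 51.1 ± 5.17 on Day 60, and its log2 fold change of 0.82 was 0.19 by upper quartile and -0.014 by median ratio. Psme2, its partner, was listed at only 1.68 ± 0.470 FPKM on Day -2, and 82.5% of its transcript has a near-identical copy elsewhere, so its level is uncertain. Psmf1, an inhibitor of the core, was at 18.2 ± 0.777 on Day -2 and 6.64 ± 0.578 on Day 60, a log2 fold change of 1.23 that passed under every setting. Of the 5 chaperones of core assembly 4 were higher and 1 lower (0 and 3 by upper quartile and by median ratio). The one that was lower, Pomp, which builds the catalytic rings, was at 57.6 ± 4.92 on Day -2, 42.4 ± 5.09 on Day 0 and 73.0 ± 4.69 on Day 60, with a log2 fold change of -0.49 that passed under every setting. Of 11 other cap and shuttle genes found of 12, 8 were higher and 0 lower (5 and 3 by upper quartile, 2 and 5 by median ratio), and of 5 tested ubiquitin and E1 genes 5 were higher (3 higher and 0 lower by upper quartile, 3 and 1 by median ratio).

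The transcription factors and processing enzymes that control proteasome genes had a direction that rests on the scaling. Of 9 tested 4 were higher and 1 lower on Days -2 to 5 than on Days 25 to 60 on the FPKM scale, where 70.2% of all genes were higher, but 0 higher and 7 lower by upper quartile (46.8 and 31.98% of all genes) and 0 higher and 9 lower by median ratio (39.6 and 39.7%). Nfe2l1, the factor that drives proteasome gene transcription when activity is short, was at 9.24 ± 1.15 FPKM on Day -2, 7.64 ± 0.184 on Day 0, 10.7 ± 0.567 on Day 20 and 13.1 ± 1.22 on Day 60. Its log2 fold change of 0.046 did not pass on the FPKM scale and was -0.53 by upper quartile, -0.72 by median ratio and -0.068 by TPM. Nfe2l2, the factor of the oxidative stress response, was at 11.9 ± 3.18 on Day -2 and 4.90 ± 1.61 on Day 0, and 4 of the 9 genes fell in that step by limma with Benjamini-Hochberg adjustment, near the 41.4% of all genes. Messenger RNA of these factors says nothing of their activity, which is set largely after translation.

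The 6 catalytic genes are scattered except for Psmb8 and Psmb9, which lie beside Tap1 in the MHC region. In the mouse build NCBI37 (GENCODE M1), Psmb8 is at chr17:34334666-34338399 on the plus strand, Tap1 at chr17:34324498-34334170 on the plus strand and Psmb9 at chr17:34318933-34324709 on the minus strand. Psmb10 is at chr8:108459628-108462292 (minus), Psmb5 at chr14:55232644-55236851 (minus), Psmb6 at chr11:70338869-70341360 (plus) and Psmb7 at chr2:38443556-38499607 (minus). Annotated exons of Psmb9 and Tap1 share 212 bases on opposite strands, and the library kit keeps no strand, so reads from those bases cannot be told apart. The promoter windows of RefSeq (GRCm38.p6; 250 bases before to 50 after the gene start) were searched for fixed motifs on both strands; 32 of 39 members had a window, 34 windows in all. Of the 5 motifs searched 4 are given. The other was in 2 of the 34 windows (5.88% against 8.30% of all windows). GAAA followed by any 2 bases and GAAA again was in 3 of the 34 (8.82% against 3.44% of all windows), those of Psmd4, Psmd9 and Psmb3. TGACNNNGC, the antioxidant element, was in 5 of the 34 (14.7% against 12.4% of 32851 windows of all genes), CCAAT in 13 (38.2% against 37.4%) and GGGCGG in 19 (55.9% against 35.7%); TGACNNNGC and the reverse of GGGCGG overlap in Psmd9. No window was found for Psma8, Psmb1, Psmb2, Psmb7, Psmc3, Psmd3 or Psmd7. A match describes letters only and is not evidence of a bound factor.

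The stretches before the gene start are shown for Psmb9, the immunoproteasome gene that shares its upstream region with Tap1, for Psmb6, which it replaces, and for Psmb5, 5′ to 3′ in the direction of the gene, from RefSeq on GRCm38.p6. They are chr17:34187331-34187555 on the minus strand for Psmb9, which is the 225 bases between its start and that of Tap1 in RefSeq (in GENCODE M1 the annotated genes overlap instead), chr14:54617996-54618145 on the minus strand for Psmb5 and chr11:70525157-70525356 on the plus strand for Psmb6. Capitals mark GGGCGG and ATTGG (the reverse complement of CCAAT) in Psmb9, TGACGTCGC in Psmb5, and CCGCCC (the reverse complement of GGGCGG) and TGACGGAGC in Psmb6. The window of Psmb10 held none of these motifs.
Psmb9: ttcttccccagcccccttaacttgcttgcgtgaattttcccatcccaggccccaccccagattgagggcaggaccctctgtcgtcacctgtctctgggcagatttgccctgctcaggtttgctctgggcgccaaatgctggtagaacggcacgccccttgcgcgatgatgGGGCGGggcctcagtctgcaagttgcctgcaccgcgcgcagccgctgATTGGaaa
Psmb5: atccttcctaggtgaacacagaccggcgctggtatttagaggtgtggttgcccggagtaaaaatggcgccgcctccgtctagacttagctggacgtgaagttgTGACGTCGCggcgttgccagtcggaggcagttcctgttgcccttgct
Psmb6: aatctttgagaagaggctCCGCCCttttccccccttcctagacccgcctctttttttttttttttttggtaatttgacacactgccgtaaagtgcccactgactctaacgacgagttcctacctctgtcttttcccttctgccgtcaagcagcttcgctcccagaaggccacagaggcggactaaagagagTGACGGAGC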

How the data were processed

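The values are FPKM as deposited by the authors, who aligned reads to mm9 with TopHat 1.2.0 and estimated levels with Cufflinks 1.0.3. The rule on symbols, the roles and the gene lists were chosen with earlier results of these data known. Of 21889 genes, the 11149 whose mean reached 1 FPKM at some age were tested as log2(FPKM + 1) in limma 3.58.1 (R 4.3.3), with a mean per age and moderated variance with a trend; Benjamini-Hochberg adjustment was over all genes within a comparison, and over all genes and 11 ages together for a difference from Day 60 at any age. A call needs an adjusted p under 0.05. Pair ratios were tested by exact two-sided permutation of age means. Members named with values are the 6 catalytic subunits, the most and least moving member of each role, the most and least abundant and the untested ones; others are marked as chosen after values were seen. Alternatives were upper quartile, median ratio and TPM scaling, a pseudocount of 0.1, no filter, a filter of 5 FPKM, no trend, replicate number as a block and leaving out each mouse; the contrast of Day 5 with Day -2 and the joint removal of Day 0 replicate 1 and Day 20 replicate 1 were chosen after seeing the data. Copies were searched with BLAST 2.17.0. Scripts ran in Python 3.11.15.

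Limits: the mice of an age are 3, each was sampled once, and litters are not recorded, so litter and age cannot be separated. The table holds no read totals per library. A whole liver mixes cell types, and the RNA of their markers changed with age. RNA levels do not give the amount, the assembly or the activity of the proteasome. FPKM are relative to the library, so a large change in a few abundant genes moves all the others.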

Additional observations from a re-analysis of the deposited data

How the results depend on the processing

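The FPKM values were refitted under other settings, with 52 results and 2296 values in all. Of these 2172 were the same in direction and call, a count of members being taken as the same up to a factor of 1.5. Most of the values come from leaving out 1 mouse, in many cases of an age outside the comparison, which leaves the fold change as it was. The total therefore says little about the effect of the scaling. The rise of Psmb8, Psmb9 and Psmb10 from Day -2 to Day 5 passed under every setting and without any 1 mouse, and the members low on Days 10 to 20 numbered 12 to 17 when mice were left out singly. The scaling between libraries moved many of the counts. With the upper quartile, 3 members were higher and 18 lower on Days -2 to 5 than on Days 25 to 60 (30 and 0 on the FPKM scale), and 1 was higher on Days 10 to 20. With the median ratio the same counts were 2, 24 and 0, 29 members were lower on Days 10 to 20 (16 on the FPKM scale), 11 changed from Day -2 to Day 0 (28 on the FPKM scale), and 8 were lower on Day 5 than on Day -2 (13 on the FPKM scale). With TPM, 2 members were lower on Days -2 to 5, 8 lower on Day 5 than on Day -2 and 3 changed between Day 25 and Day 60 (0 on the FPKM scale). Which scaling is closer to the RNA per cell was not tested, nor was the cause of these shifts.

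Single genes turned direction on Days -2 to 5 against Days 25 to 60. The log2 fold change by upper quartile was -0.32 for Psma3, -0.37 for Psmb7, -0.19 for Psmb6, -0.57 for Psmb5, -0.089 for Psmb10, -0.31 for Psmb1, -0.14 for Psmc6, -0.35 for Psmc1, -0.47 for Psmd6, -0.23 for Psmb4 and -0.53 for Nfe2l1. By median ratio it was -0.12 for Psma1, -0.47 for Psma3, -0.57 for Psmb7, -0.39 for Psmb6, -0.77 for Psmb5, -0.29 for Psmb10, -0.18 for Psmb2, -0.52 for Psmb1, -0.32 for Psmc6, -0.55 for Psmc1, -0.059 for Psmd14, -0.67 for Psmd6, -0.44 for Psmb4, -0.014 for Psme1, -0.080 for Psme2 and -0.72 for Nfe2l1. By TPM it was -0.061 for Psmb5 and -0.068 for Nfe2l1. On Days 10 to 20 against Days 25 to 60 the median ratio gave -0.13 for Psmb8 and -0.066 for Psmb9. The cause was not tested.

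For the pair ratios, Days 1 to 20 in place of Days -2 to 5 gave 0.64 for Psmb8 to Psmb5 (-0.10 before; exact permutation, two-sided, adjusted p = 0.0714), 0.71 for Psmb10 to Psmb7 (adjusted p = 0.0286), and -0.099 for Psmb9 to Psmb6 (-0.82 before; adjusted p = 0.781). Permuting the 27 mice, by random draws in place of every split of the ages, gave -0.82 for Psmb9 to Psmb6, with an adjusted permutation p of 0.00273; this treats mice of an age as independent of their age group.

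With each mouse left out in turn, the members changed from Day 20 to Day 25 numbered 1 to 7, those lower on Days -2 to 5 numbered 0 to 1 and those changed between Day 30 and Day 60 numbered 0 to 1. The log2 fold change on Days -2 to 5 ran from -0.092 to 0.024 for Psmb8, -0.026 to 0.086 for Nfe2l1 and -0.10 to 0.087 for Tap1, and on Days 10 to 20 from -0.12 to 0.0060 for Psmb6. Without Day 0 replicate 1 and Day 20 replicate 1 together, a setting chosen after seeing the data, 3 members changed from Day 20 to Day 25 and Tap1 was at 0.0098 on Days -2 to 5.

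Replicate number as a block gave 30 higher and 0 lower on Days -2 to 5, 2 higher and 16 lower on Days 10 to 20, 29 changed from Day -2 to Day 0 and 7 changed from Day 20 to Day 25. The labels do not say that a number marks a shared litter or batch, and not every pair of libraries with the same number correlated over 0.1 (104 of 198 did), so the numbers were not treated as pairs. The deviations were still not independent of the number: the mean correlation was 0.0978 for the same number and -0.0477 for different numbers, and 19 of 36 libraries correlated best with their own number. Replicate 1 was the lowest mouse of its age in 211 of 444 combinations of member and age, where chance gives 148. The members differed in this. It was lowest in 11 of 12 ages for Psmb7 and 10 of 12 for Psmb5, but in 0 of 12 for Psmc6. For Psma1, Psmd1, Psmd6 and Psmd12 it was lowest in 1 of 12. The cause was not tested. The table holds no read totals per library, and what depth limits was not tested; the estimated relative depth ran from 0.897 to 1.33.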
